A study of Homo sapiens with 12 samples.

Results

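The effect of lung selection common to 2 human lung cancer lines was measured as the mean of the changes of both lines, selected minus unselected, on all 12 arrays of the study. The lines were A549, a lung adenocarcinoma line, and HTB56, an anaplastic lung carcinoma line (Calu-6). Each line was profiled as the unselected parent (0 rounds of selection, groups A0R and H0R) and as the cells recovered after 3 rounds of in vivo selection (groups A3R and H3R), in which cells injected into a vein of mice formed lung nodules. Each of the 4 groups had 3 arrays, and all groups are labelled untreated with respect to 5-azacytidine. The labels give no mouse strain, no number of animals and no statement on whether a selected line was a clone or a pool. Nor do they say whether replicates came from separate cultures. A p here thus covers the spread among the arrays, which may be technical. The contrast was tested for 16939 genes, out of 18417 named genes before a filter on dim probe sets. All values are log2 RMA signals, in which a difference of 1 is a 2-fold change.

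Cells injected into a vein first lodge in the capillaries of the lung, and the few that survive, leave the vessel and grow form nodules. Passing such survivors through further animals enriches heritable traits that were already present or that arose on the way. Read beside each line's own change, the average of both lines separates transcripts that moved alike from those that moved in 1 line.

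Array medians lay between 5.55 and 5.67, and arrays of 1 group correlated across probe sets at 0.988 to 0.995. Arrays with the same replicate number deviated together, which is why the number is a block in the fit. The array of A0R replicate 2 stood apart. For 10 genes bright in HTB56 (at least 9) and dim in A549 (at most 5) its median deviation was 1.53, while the remaining A549 arrays had -0.32 to 0.18. The keratin genes KRT8 and KRT18 were bright in all groups, and CDH1, which encodes E-cadherin, was dim in both HTB56 groups (4.55 in H0R). Of markers of host cells, 4 of 11 fibroblast genes were called higher on average (36.4%, beside 8.93% of all genes) and 0 lower. Among these, COL1A1 changed by -0.16 in A549 and 1.41 in HTB56, and C1R by 0.81 in A549 and 0.15 in HTB56. Of 12 endothelial genes 0 were called, and of 17 leukocyte genes LYZ was higher and LAPTM5 lower (11.8%). Over all genes 20.4% were called, so lists this small say little.

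Selected cells of both lines carried more HAS2 mRNA, which encodes a hyaluronan synthase, more CPS1, the entry enzyme of the urea cycle, and more TBXAS1 and HPGD, which act on prostaglandins. They carried less PDK4 and PPARGC1A, which steer mitochondrial fuel use, less DDIT4, a stress-induced inhibitor of mTOR signalling, and less THSD7A, a membrane protein gene with thrombospondin repeats. Such shared changes were a minority. The averaged contrast called 3461 genes at a limma adjusted p below 0.05 (20.4% of genes tested), 1512 higher (8.93%) and 1949 lower (11.5%) in selected cells. Unadjusted, 5439 genes had a p below 0.05. A change is termed shared here where the gene was called on average, moved the same way in both lines and had an unadjusted p below 0.05 in each. This held for 658 genes (3.88%), 274 higher (1.62%) and 384 lower (2.27%), or 19% of the genes called. Counts of list members called or shared are to be read beside these shares of all genes.

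The average was carried mainly by HTB56. Called alone, HTB56 had 4744 genes (28%) and A549 had 562 (3.32%). The A549 count fell to 299 and 337 when A0R array 1 or 2 was left out (arrays are numbered by replicate), and to 312, 290 and 349 when A3R array 1, 2 or 3 was. Of the 3461 genes called on average, 2782 were called in HTB56 and not in A549, 243 in A549 and not in HTB56, 147 in both and 289 in neither. The median absolute change of the called genes was 0.51 in HTB56 and 0.14 in A549, and for 975 of them the signs of the lines were opposite. Among shared genes these medians were 0.43 and 0.29, and HTB56 had the larger change in 490. A test of the difference between the lines (the interaction) called 134 of the 658 shared genes, against 20.4% of all genes. For the other 524 the test missed its threshold, which does not show that the lines changed equally.

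Across all genes the lines moved the same way about as often as opposite ways. An unadjusted p below 0.05 in both lines was found for 1278 genes, of which 658 moved the same way and 620 opposite ways, so 51.5% were alike. At the adjusted threshold in each line, 118 genes (0.697%) were called the same way and 116 (0.685%) opposite ways. These 234 genes were 41.6% of the A549 list and 4.93% of the HTB56 list. The lines share no arrays. Arrays of selected and unselected cells did not overlap in either line, in the same direction, for 468 genes (2.76%), and in opposite directions for 459 (2.71%). Closest to the edge of the shared set were ZNF84 (0.24 in A549, 0.62 in HTB56, with an unadjusted limma p of 0.0499 in A549) and DNM2 just inside, and AHCYL2 (unadjusted limma p 0.0501 in A549) and SCAPER just outside. Without the replicate block the averaged contrast called 2137 genes and 334 were shared, and median centring of the arrays turned the split of shared genes to 189 higher and 447 lower.

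**Figure D1:**
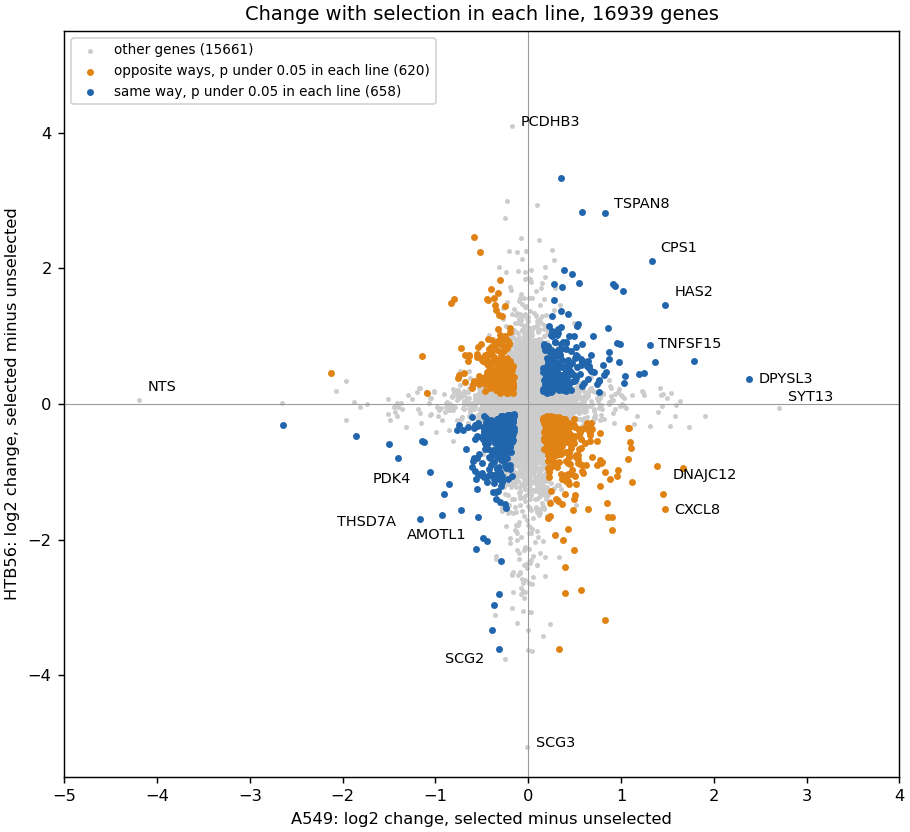
Change of each of 16939 genes with selection in A549 (horizontal axis, log2) and in HTB56 (vertical axis, log2). The 658 genes that moved the same way with an unadjusted p below 0.05 in each line are blue and the 620 that moved opposite ways are orange, and genes such as SCG3 and NTS lie along an axis, with a change in 1 line.

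Size in both lines was rare: 5 of the 658 shared genes changed at least 2-fold in each line, namely HAS2, CPS1, RNF144B, THSD7A and PDK4, and 30 changed at least 1.5-fold in each, 19 higher and 11 lower. HAS2 makes the long sugar polymer hyaluronan at the cell surface. Its signals were 6.15, 5.73 and 6.50 in A0R, 7.72, 7.13 and 7.95 in A3R, 7.45, 6.75 and 7.48 in H0R and 8.66, 8.39 and 9.02 in H3R. All selected arrays were above all unselected arrays of their line, and replicate 2 was the lowest array in every group. The averaged rise was 1.47 (SE 0.06, limma adjusted p = 3.29e-07), with 1.48 in A549 and 1.46 in HTB56. The change of HTB56 minus that of A549 was -0.01 (95% interval -0.30 to 0.27).

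CPS1, the carbamoyl phosphate synthase of mitochondria, read 10.28, 10.48 and 10.51 in A0R, 11.91, 11.79 and 11.56 in A3R, 5.31, 6.13 and 5.10 in H0R and 7.81, 7.40 and 7.66 in H3R. Selected arrays were the higher ones in both lines, although A549 expressed the gene far above HTB56 from the start. It rose by 1.72 (SE 0.15, limma adjusted p = 2.99e-05), with 1.33 in A549 and 2.11 in HTB56. RNF144B, which encodes a ubiquitin ligase of the ring-between-ring type, read 5.00, 5.05 and 5.02 in A0R, 6.10, 6.12 and 5.92 in A3R, 5.11, 5.20 and 5.15 in H0R and 6.78, 6.98 and 6.71 in H3R. Unselected arrays of both lines lay close together, and no array overlapped between groups of a line. Its average was 1.34 (SE 0.05, limma adjusted p = 2.27e-07), with 1.02 in A549 and 1.67 in HTB56, and the lines differed by 0.65 (interaction, limma adjusted p = 0.00197). TFF1 encodes a trefoil peptide secreted with mucus. Its levels were 6.57, 6.96 and 6.69 in A0R, 7.53, 7.62 and 7.88 in A3R, 5.86, 5.96 and 6.37 in H0R and 7.84, 7.43 and 8.17 in H3R. Again the selected arrays did not overlap the unselected ones, and the averaged change was 1.34 (SE 0.11, limma adjusted p = 1.88e-05), with 0.93 in A549 and 1.75 in HTB56.

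LUM, the gene of the collagen-binding proteoglycan lumican, read 3.23, 3.12 and 3.33 in A0R, 4.09, 4.02 and 4.31 in A3R, 4.47, 4.60 and 5.43 in H0R and 6.78, 6.06 and 6.99 in H3R. Every selected array was higher than every unselected array of its line, and A0R lay under 3.48, the mean 20th percentile of the arrays, so the size in A549 is limited by background. The averaged rise was 1.34 (SE 0.12, limma adjusted p = 4.35e-05), with 0.91 in A549 and 1.78 in HTB56. LUM is also a fibroblast marker. The summed level of the 11 fibroblast markers tested went from between 62.75 and 64.50 in A0R to between 65.53 and 67.25 in A3R. In HTB56 it went from between 58.72 and 62.21 in H0R to between 65.22 and 67.07 in H3R. LUM is part of this sum, so the sum moves with it by construction. Some markers differed between the lines, as COL1A1 (-0.16 in A549, 1.41 in HTB56) and C1S (0.60 in A549, -0.11 in HTB56). Others moved alike, as ACTA2 (0.16 in A549, 0.21 in HTB56). COL1A1, COL3A1 and C1R were the other markers called higher, COL1A2 changed by 0.06 and THY1 by 0.06 on average (limma adjusted p 0.595 and 0.751), and the part of such cells in the LUM result was not tested.

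TBXAS1 encodes thromboxane synthase and HPGD the dehydrogenase that inactivates prostaglandins. TBXAS1 read 6.77, 6.90 and 6.95 in A0R, 8.01, 8.37 and 8.18 in A3R, 5.95, 5.87 and 5.95 in H0R and 6.90, 6.81 and 6.68 in H3R. The groups of each line were separate, with the larger step in A549, and the average was 1.09 (SE 0.07, limma adjusted p = 4.28e-06), with 1.31 in A549 and 0.87 in HTB56. HPGD read 10.05, 9.83 and 10.23 in A0R, 10.68, 10.69 and 10.81 in A3R, 4.87, 5.38 and 5.04 in H0R and 6.36, 5.87 and 6.09 in H3R. It was abundant in A549 and dim in HTB56, and selected arrays were higher in both, by 0.85 (SE 0.11, limma adjusted p = 0.000375), with 0.69 in A549 and 1.01 in HTB56. TSPAN8, a tetraspanin gene of epithelial surfaces, read 3.08, 3.67 and 3.48 in A0R, 4.17, 4.18 and 4.38 in A3R, 3.62, 3.64 and 3.37 in H0R and 6.76, 6.21 and 6.10 in H3R. Its unselected arrays were near background in both lines, the selected ones did not overlap them, and the rise of 1.82 (SE 0.13, limma adjusted p = 7.87e-06), with 0.83 in A549 and 2.82 in HTB56, was larger in HTB56 (interaction 1.99, limma adjusted p = 0.000406).

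**Figure D2:**
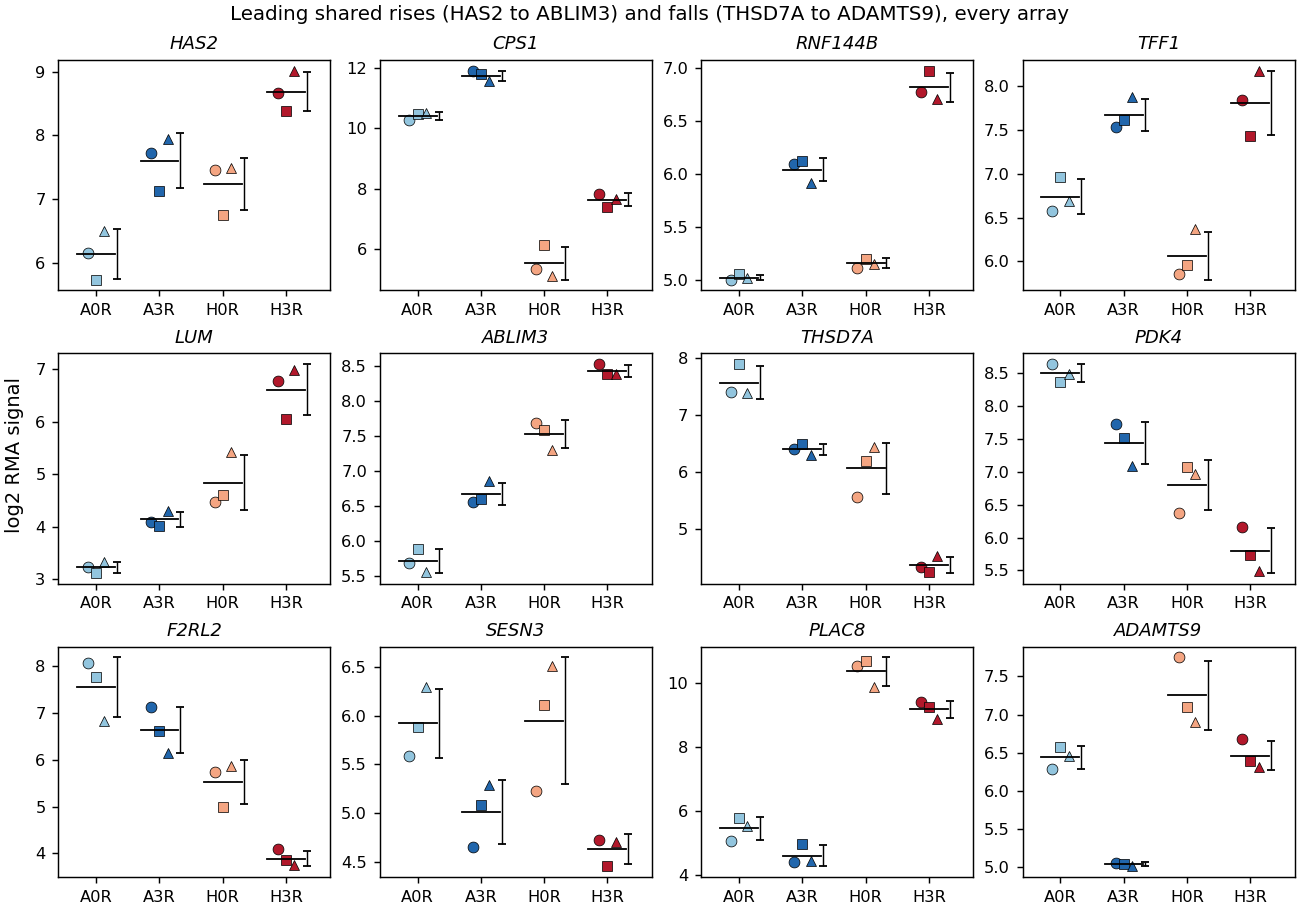
Log2 RMA signal of the leading shared rises (HAS2, CPS1, RNF144B, TFF1, LUM, ABLIM3) and falls (THSD7A, PDK4, F2RL2, SESN3, PLAC8, ADAMTS9) on every array, by group (A0R, A3R, H0R, H3R); circles, squares and triangles are replicates 1, 2 and 3, lines are group means and bars are SD with n = 3. HAS2 moved from a mean of 6.13 to 7.60 in A549 and from 7.23 to 8.69 in HTB56, while PLAC8 sat far higher in HTB56 than in A549.

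Members of the tumour necrosis factor family were also among the leading rises. TNFSF15 encodes a ligand of that family and TNFRSF9 the receptor known as CD137. TNFSF15 read 4.77, 4.93 and 5.28 in A0R, 6.74, 6.96 and 6.65 in A3R, 4.63, 4.69 and 4.49 in H0R and 5.11, 5.15 and 5.46 in H3R. Selected arrays were all higher, by 1.21 (SE 0.09, limma adjusted p = 1.44e-05), with 1.79 in A549 and 0.64 in HTB56. The change was larger in A549 (interaction -1.15, limma adjusted p = 0.00172). TNFRSF9 read 5.88, 5.47 and 5.69 in A0R, 6.82, 6.23 and 6.92 in A3R, 5.38, 4.74 and 4.79 in H0R and 5.59, 5.42 and 5.77 in H3R. Its groups did not overlap, although in HTB56 the lowest selected array was just above the highest unselected one, and the average was 0.80 (SE 0.10, limma adjusted p = 0.000258), with 0.98 in A549 and 0.62 in HTB56. The remaining leading rises were ABLIM3, an actin-binding LIM protein gene (0.96 in A549, 0.90 in HTB56), PRICKLE2, a planar polarity gene (0.86 in A549, 1.12 in HTB56), FRMD5 (0.67 in A549, 0.73 in HTB56), MYO1D, a class I myosin gene (0.87 in A549, 0.67 in HTB56), and ADAM19, a membrane-anchored metalloprotease gene (0.65 in A549, 0.64 in HTB56). Limma adjusted p of these averages ran from 2.17e-05 for PRICKLE2 to 0.00317 for ADAM19.

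The leading fall was that of THSD7A. It read 7.40, 7.89 and 7.38 in A0R, 6.39, 6.48 and 6.30 in A3R, 5.56, 6.18 and 6.44 in H0R and 4.33, 4.24 and 4.52 in H3R. Selected arrays were lower throughout, and the averaged change was -1.43 (SE 0.13, limma adjusted p = 3.14e-05), with -1.17 in A549 and -1.70 in HTB56. PDK4 encodes the kinase that switches off pyruvate dehydrogenase and so spares glucose. It read 8.64, 8.37 and 8.49 in A0R, 7.73, 7.51 and 7.09 in A3R, 6.37, 7.07 and 6.97 in H0R and 6.16, 5.74 and 5.49 in H3R. All selected arrays were lower than the unselected arrays of their line, and the averaged change was -1.03 (SE 0.15, limma adjusted p = 0.000803), with -1.06 in A549 and -1.0 in HTB56. The difference between the lines was 0.05 (95% interval -0.61 to 0.72). DDIT4 read 9.27, 9.09 and 8.64 in A0R, 8.56, 8.50 and 7.92 in A3R, 6.48, 6.60 and 6.11 in H0R and 5.82, 5.95 and 5.43 in H3R. Every selected array was below all unselected arrays of its line, and the change was -0.67 (SE 0.06, limma adjusted p = 3.14e-05), with -0.67 in A549 and -0.67 in HTB56. The 95% interval for the difference between lines was -0.25 to 0.26.

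AMOTL1, an angiomotin gene that binds YAP, read 8.02, 8.26 and 7.75 in A0R, 7.34, 7.35 and 7.19 in A3R, 7.19, 7.36 and 7.37 in H0R and 5.60, 5.71 and 5.90 in H3R. The groups were separate in both lines, at -1.15 (SE 0.09, limma adjusted p = 1.1e-05), with -0.72 in A549 and -1.57 in HTB56, and the fall was larger in HTB56 (interaction -0.85, limma adjusted p = 0.00512). ADAMTS9, a secreted metalloprotease gene, read 6.29, 6.58 and 6.46 in A0R, 5.06, 5.04 and 5.01 in A3R, 7.75, 7.10 and 6.90 in H0R and 6.68, 6.39 and 6.31 in H3R. Its 3 A3R arrays lay within 0.05 of each other and below all A0R arrays, and the averaged change was -1.10 (SE 0.11, limma adjusted p = 0.000101), with -1.40 in A549 and -0.79 in HTB56. SESN3, a sestrin gene of the stress response, read 5.59, 5.88 and 6.29 in A0R, 4.65, 5.08 and 5.29 in A3R, 5.23, 6.11 and 6.51 in H0R and 4.72, 4.45 and 4.70 in H3R. Selected arrays were lower in both lines in spite of a wide spread in H0R, with an average of -1.12 (SE 0.13, limma adjusted p = 0.000231), with -0.91 in A549 and -1.32 in HTB56. F2RL2 encodes a thrombin-activated receptor. Its signals were 8.06, 7.78 and 6.83 in A0R, 7.12, 6.62 and 6.14 in A3R, 5.74, 5.00 and 5.86 in H0R and 4.09, 3.85 and 3.75 in H3R. The A549 groups overlapped and the HTB56 groups did not, and the average was -1.28 (SE 0.18, limma adjusted p = 0.000677), with -0.93 in A549 and -1.64 in HTB56.

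PLAC8, a cysteine-rich protein gene, was far brighter in HTB56 (10.54, 10.67 and 9.86 in H0R and 9.40, 9.26 and 8.88 in H3R) than in A549 (5.08, 5.78 and 5.53 in A0R and 4.40, 4.98 and 4.43 in A3R), and changed by -0.86 in A549 and -1.18 in HTB56. Its highest A549 signal was on A0R replicate 2, and without that array the A549 change was -0.83. Other leading falls were RARB, a retinoic acid receptor gene (-0.60 in A549, -0.85 in HTB56), MGLL, the monoglyceride lipase gene (-0.58 in A549, -0.81 in HTB56), IGF2BP3, an oncofetal RNA-binding protein gene (-0.58 in A549, -0.80 in HTB56), TRIM2, a ubiquitin ligase gene (-0.57 in A549, -0.99 in HTB56), PRSS12, a serine protease gene (-0.56 in A549, -1.11 in HTB56), TMT1B (-0.61 in A549, -0.92 in HTB56) and IQGAP2, a scaffold gene of the cytoskeleton (-1.50 in A549, -0.59 in HTB56). Limma adjusted p of their averages ran from 4.36e-05 for MGLL to 0.00223 for RARB. Of the 112 named genes with a shared change, 62 stayed shared whichever array was left out. The 30 leading rises and falls were picked by the size of their changes on these same arrays. Of these, 30 kept the averaged call without any 1 array and 29 stayed shared. The exception was IQGAP2. IQGAP2 was no longer shared without H0R array 1 or 3 or H3R array 1 or 2 (unadjusted limma p 0.0579 to 0.143 in HTB56).

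Promoter sequence was set beside these changes with the 250 bases before each gene start in RefSeq, assembly GRCh38.p14, which were at hand for 223 of the 274 shared rises and 330 of the 384 shared falls. CpG dinucleotides, the site of DNA methylation, are dense in the promoters of most widely expressed genes. The median ratio of observed to expected CpG was 0.797 for shared rises and 0.843 for shared falls, against 0.737 for all 15843 protein-coding promoters, and ratios under 0.6 were held by 24.2%, 18.2% and 36.6% of them. Of all genes tested only 77.9% had a promoter at hand, with a median ratio of 0.769 and 31.4% under 0.6. These values lie closer to those of the shared sets, where 81.4% of rises and 85.9% of falls had a promoter. Both backgrounds are limited. The tested genes were matched less often than the shared sets, and the protein-coding promoters include genes that were not tested. Among shared falls the share under 0.6 was 11.2% on chromosome 2 and 22% elsewhere. The 12 leading rises with a promoter had a median of 0.511, with 8 under 0.6, and the 13 leading falls a median of 0.714, with 5 under 0.6. The ratio ran from 0.0908 to 0.934 among these rises and from 0.294 to 0.903 among these falls, so the sets overlapped. As examples from opposite ends, the CpG-poorest of the leading rises and the CpG-richest of the leading falls are given. They do not stand for their sets. Sequences run 5′ to 3′ on the gene's strand, with each CpG in capitals. TBXAS1 (chr7:139829014-139829263, plus strand) and TSPAN8 (chr12:71158000-71158249, minus strand) held 1 CpG each, DDIT4 (chr10:72273674-72273923, plus strand) held 26 and AMOTL1 (chr11:94768106-94768355, plus strand) 28.
TBXAS1: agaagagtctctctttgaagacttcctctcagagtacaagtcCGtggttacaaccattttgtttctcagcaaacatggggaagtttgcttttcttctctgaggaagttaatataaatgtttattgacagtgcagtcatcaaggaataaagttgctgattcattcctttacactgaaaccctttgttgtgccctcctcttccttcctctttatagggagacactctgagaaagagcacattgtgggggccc
TSPAN8: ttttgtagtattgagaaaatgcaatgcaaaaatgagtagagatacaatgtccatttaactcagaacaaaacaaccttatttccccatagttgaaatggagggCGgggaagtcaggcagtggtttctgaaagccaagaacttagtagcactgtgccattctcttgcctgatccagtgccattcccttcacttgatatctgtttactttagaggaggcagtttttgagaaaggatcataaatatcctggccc
DDIT4: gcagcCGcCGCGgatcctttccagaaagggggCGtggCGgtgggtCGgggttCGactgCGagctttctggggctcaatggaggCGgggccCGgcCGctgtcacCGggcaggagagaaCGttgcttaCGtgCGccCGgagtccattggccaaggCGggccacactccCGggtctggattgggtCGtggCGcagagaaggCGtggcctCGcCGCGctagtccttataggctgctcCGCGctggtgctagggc
AMOTL1: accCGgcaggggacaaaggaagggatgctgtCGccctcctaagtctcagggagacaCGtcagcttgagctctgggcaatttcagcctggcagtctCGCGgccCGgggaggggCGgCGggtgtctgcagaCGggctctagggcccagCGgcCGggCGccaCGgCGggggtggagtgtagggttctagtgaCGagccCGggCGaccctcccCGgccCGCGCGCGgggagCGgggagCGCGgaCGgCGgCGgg

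The same windows were searched on both strands for letters bound by transcription factors. The NF-kB motif (GGGA and TTCC with 2 bases between) was in 6 promoters of shared rises (2.69%) and 2 of shared falls (0.606%), against 1.36% of all protein-coding promoters. The AP-1 letters TGANTCA were in 4.93% of rises, 1.82% of falls and 5.04% of all, and the E-box letters CACGTG in 9.42%, 10.6% and 7.84%. The falls were mixed in this: AP-1 letters were in 0% of those on chromosome 2 and 2.8% of those elsewhere. For the E-box letters these shares were 4.31% and 14%. The FOXO letters GTAAACA were in 1.79%, 2.12% and 2.25%. TNFRSF9 (chr1:7940840-7941089, minus strand) held overlapping NF-kB matches 74 and 73 bases and an AP-1 match 44 bases before its start, in capitals here. A match is a description of letters, and binding was not measured.
TNFRSF9: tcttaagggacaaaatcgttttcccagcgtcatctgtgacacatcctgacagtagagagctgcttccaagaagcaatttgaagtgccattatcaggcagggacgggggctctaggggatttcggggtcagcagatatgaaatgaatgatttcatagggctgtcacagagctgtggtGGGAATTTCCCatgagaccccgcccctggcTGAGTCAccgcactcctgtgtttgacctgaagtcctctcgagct

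The collagen hydroxylase genes PLOD2, P4HA1 and P4HA2 were shared rises, while LOX, a collagen crosslinking enzyme gene, was called lower on average. Of 33 interstitial collagen and crosslinking genes, 9 were called higher and 3 lower on average, and 3 rises were shared (9.09%). PLOD2 (0.56 in A549, 0.45 in HTB56) encodes a lysyl hydroxylase of collagen, and P4HA1 (0.24 in A549, 0.34 in HTB56) and P4HA2 (0.29 in A549, 0.91 in HTB56) encode catalytic subunits of prolyl hydroxylase. The collagen genes COL1A1 and COL3A1 were called as well but were not shared, at 1.41 and 1.29 in HTB56 against -0.16 and 0.14 in A549 (interaction, limma adjusted p 5.28e-05 and 0.00044). PLOD2 read 10.29, 10.19 and 10.81 in A0R, 10.94, 10.86 and 11.16 in A3R, 9.08, 9.07 and 9.24 in H0R and 9.63, 9.41 and 9.70 in H3R, with every selected array above all unselected arrays of its line. Its average was 0.50 (SE 0.07, limma adjusted p = 0.000473), with 0.56 in A549 and 0.45 in HTB56. P4HA1 (0.243 in A549 and 0.108 in HTB56) was not shared in the fit without the replicate block, by the unadjusted limma p in parentheses.

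Over all genes 8.93% were called higher and 11.5% lower on average. In the hyaluronan and proteoglycan list 5 of 26 were higher (19.2%) and 3 lower (11.5%), with HAS2 and LUM shared. Of 38 integrin, laminin and basement membrane genes, 8 were higher (21.1%) and 3 lower (7.89%). ITGB1, the common beta subunit of many integrins (0.19 in A549, 0.37 in HTB56), NID2, a nidogen gene (0.47 in A549, 0.61 in HTB56), and FRAS1 (0.33 in A549, 0.21 in HTB56) were shared. Matrix proteases and inhibitors had 9 higher (18.8%) and 10 lower (20.8%) of 48, with ADAM19, TIMP1 (0.24 in A549, 1.02 in HTB56) and TFPI shared higher and ADAMTS9 lower. Glypican, syndecan and heparan sulfate genes had 2 higher (6.25%) and 8 lower (25%) of 32, with a median averaged change of -0.00. HTB56 alone had 11 called lower (34.4%, beside 15.1% of all genes) and A549 1 (3.12%, beside 1.56%). SDC1, the syndecan 1 core protein gene (-0.25 in A549, -0.43 in HTB56), and EXTL3 (-0.31 in A549, -0.70 in HTB56) were shared falls. P4HA1 was no longer shared without A0R array 1 or A3R array 1 or 2 (unadjusted limma p 0.0612 to 0.143 in A549). ITGB1 was no longer shared without A0R array 1 or 2 or A3R array 1 or 2 (unadjusted limma p 0.0589 to 0.136 in A549). NID2 was no longer shared without A0R array 1 or 2, A3R array 1 or H0R array 3 (unadjusted limma p 0.114 to 0.162 in A549 and 0.0542 in HTB56). FRAS1 was no longer shared without H0R array 1 or 2 or H3R array 1 or 3 (unadjusted limma p 0.0728 to 0.184 in HTB56). TIMP1 was no longer shared without A3R array 1 (unadjusted limma p 0.08 in A549). Without the block the average of P4HA1 had a limma adjusted p of 0.229. EXTL3 (0.102 in A549), ITGB1 (0.0663 in A549), FRAS1 (0.0619 in HTB56) and TIMP1 (0.102 in A549) were not shared in the fit without the replicate block, by the unadjusted limma p in parentheses. SDC1 lies on chromosome 2, where 11.4% of genes were shared falls.

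Of 37 chemokine and cytokine genes 14 were called higher on average (37.8%, beside 8.93% of all genes) and 0 lower, 23 were not called, and 3 were shared. The list had a median averaged change of 0.13 beside 0.01 over all genes. A549 alone had 13 called higher (35.1%, beside 1.75% of all genes) and 0 lower, HTB56 had 5 higher (13.5%, beside 12.9%) and 3 lower (8.11%, beside 15.1%), and 3 members were called opposite ways. Shared members were TNFSF15, ICAM1, an adhesion molecule gene (1.25 in A549, 0.46 in HTB56), and IL1A, which encodes the alpha form of interleukin 1 (0.68 in A549, 0.49 in HTB56). ICAM1 read 6.52, 6.59 and 6.72 in A0R, 8.30, 7.47 and 7.82 in A3R, 5.53, 5.25 and 5.59 in H0R and 6.02, 5.58 and 6.15 in H3R. Its groups were separate in A549 but overlapped in HTB56, where H3R replicate 2 was below H0R replicate 3, and the average was 0.86 (SE 0.10, limma adjusted p = 0.00021), with 1.25 in A549 and 0.46 in HTB56. CXCL8, the neutrophil-attracting chemokine gene also called IL8, moved opposite ways, at 1.48 in A549 and -1.55 in HTB56, so its average of -0.03 (limma adjusted p = 0.897) shows neither change.

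Interferon response genes were called in different directions in the lines. On average 3 of 45 were higher (6.67%, beside 8.93% of all genes) and 9 lower (20%, beside 11.5%). A549 alone had 11 higher (24.4%, beside 1.75% of all genes) and 0 lower. HTB56 alone had 1 higher (2.22%, beside 12.9%) and 14 lower (31.1%, beside 15.1% of all genes). The shared members were IFIT5 (0.23 in A549, 1.15 in HTB56), an interferon-induced gene, and IFI30 (-0.35 in A549, -0.68 in HTB56), a lysosomal thiol reductase gene. Of 18 antigen presentation genes CTSS, the cathepsin S gene, was shared (0.61 in A549, 0.62 in HTB56). In the prostaglandin list 5 of 28 were higher and 2 lower, and TBXAS1 and HPGD were shared. IL1A was no longer shared without H0R array 1 or 3 or H3R array 1 or 2 (unadjusted limma p 0.0513 to 0.2 in HTB56). IFIT5 was no longer shared without A0R array 1 or 3 or A3R array 2 or 3 (unadjusted limma p 0.0574 to 0.143 in A549). IFI30 was no longer shared without A0R array 1 or A3R array 2 or 3 (unadjusted limma p 0.0768 to 0.101 in A549). Without the block the average of IFI30 had a limma adjusted p of 0.0962. IFIT5 (0.0695 in A549) and IFI30 (0.213 in A549) were not shared in the fit without the replicate block, by the unadjusted limma p in parentheses.

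Blood coagulation and complement genes held shared changes in both directions. Of 41 genes 9 were higher and 6 lower. TFPI, which encodes the inhibitor of the tissue factor pathway, read 7.39, 7.53 and 7.33 in A0R, 8.0, 8.19 and 7.77 in A3R, 7.29, 7.41 and 7.54 in H0R and 8.14, 7.89 and 8.20 in H3R. Each selected array was above all unselected arrays of its line, and the average was 0.62 (SE 0.09, limma adjusted p = 0.000718), with 0.57 in A549 and 0.67 in HTB56. C3, the central complement component (1.37 in A549, 0.62 in HTB56), and F8, coagulation factor VIII (0.25 in A549, 0.33 in HTB56), were shared rises, and the thrombin receptor genes F2RL2 and F2R (-0.23 in A549, -0.22 in HTB56) shared falls. IQGAP2, F2RL2 and F2R are neighbouring genes on chromosome 5, and whether their falls are linked was not tested. C3 was no longer shared without H0R array 1 or 3 or H3R array 3 (unadjusted limma p 0.0626 to 0.0793 in HTB56). F8 was no longer shared without A0R array 1 or 2 or A3R array 1 (unadjusted limma p 0.067 to 0.155 in A549). F2R was no longer shared without A0R array 1 or 2, A3R array 2, H0R array 1 or 3 or H3R array 1, 2 or 3 (unadjusted limma p 0.0717 to 0.192 in A549 and 0.0501 to 0.161 in HTB56). The averaged call of F2R was lost without any of these arrays (limma adjusted p 0.0582 to 0.0966) and without the block (0.108). F8 (0.0613 in A549) and F2R (0.0754 in A549 and 0.0872 in HTB56) were not shared in the fit without the replicate block, by the unadjusted limma p in parentheses.

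Ligands and receptors of growth factor signalling were split. Of 61 receptor tyrosine kinase and growth factor genes 7 were higher and 15 lower on average. EREG, which encodes the ERBB ligand epiregulin, read 9.80, 9.38 and 9.61 in A0R, 10.24, 10.08 and 10.17 in A3R, 7.69, 7.47 and 7.85 in H0R and 8.22, 8.12 and 8.39 in H3R. The selected arrays were the higher ones in each line, and the average was 0.57 (SE 0.06, limma adjusted p = 0.000146), with 0.57 in A549 and 0.57 in HTB56. The interval for the difference between the lines was -0.27 to 0.28. KITLG, the ligand of KIT (0.80 in A549, 0.57 in HTB56), MET, the receptor of hepatocyte growth factor (0.26 in A549, 0.45 in HTB56), and EPHA2, an ephrin receptor gene (0.26 in A549, 0.36 in HTB56), were shared rises. FGFR2 (-0.44 in A549, -0.28 in HTB56), a fibroblast growth factor receptor gene, and EGF (-0.22 in A549, -1.11 in HTB56), the epidermal growth factor gene, were shared falls. In the insulin-like growth factor list 5 of 27 were higher and 5 lower, with IGF2BP3 and INSR, the insulin receptor gene (-0.40 in A549, -0.34 in HTB56), shared lower, INSRR (0.30 in A549, 0.35 in HTB56) shared higher, and 4 members called opposite ways. FGFR2 was no longer shared without H0R array 1 (unadjusted limma p 0.0735 in HTB56). EGF was no longer shared without A0R array 2 or 3, A3R array 2, H0R array 1 or 3 or H3R array 1 or 2 (unadjusted limma p 0.0507 to 0.272 in A549). INSR was no longer shared without A0R array 1, A3R array 2 or 3, H0R array 2 or H3R array 1 or 2 (unadjusted limma p 0.0508 to 0.102 in A549 and 0.11 to 0.23 in HTB56). The INSR average had a limma adjusted p of 0.0543 to 0.0646 without these arrays, and without the block EPHA2 and INSRR had 0.0625 and 0.144. EPHA2 (0.0923 in A549), INSRR (0.136 in A549 and 0.0804 in HTB56) and EGF (0.131 in A549) were not shared in the fit without the replicate block, by the unadjusted limma p in parentheses.

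In the TGF-beta and BMP list, whose ligands signal through paired serine kinase receptors to SMAD proteins, 9 of 53 were higher and 11 lower. The coreceptor gene TGFBR3 read 7.96, 7.68 and 7.43 in A0R, 7.53, 7.42 and 7.01 in A3R, 7.22, 7.21 and 6.79 in H0R and 6.31, 5.91 and 5.65 in H3R. Arrays of A549 overlapped and those of HTB56 did not, and the average was -0.74 (SE 0.06, limma adjusted p = 1.58e-05), with -0.37 in A549 and -1.11 in HTB56. BMPR2, a BMP receptor gene (-0.26 in A549, -0.38 in HTB56), ACVR2A, and the target genes ID2 (-0.38 in A549, -1.30 in HTB56) and ID3 (-0.75 in A549, -0.30 in HTB56) were the other shared falls, and TGFBR2 (0.21 in A549, 0.26 in HTB56) and SMAD1 (0.22 in A549, 0.60 in HTB56) the shared rises. Wnt genes had 5 higher and 10 lower of 60, with the receptor gene ROR1 (0.66 in A549, 0.53 in HTB56) and PRICKLE2 shared higher and the receptor genes FZD7 (-0.33 in A549, -0.69 in HTB56) and FZD5 (-0.28 in A549, -0.32 in HTB56) shared lower. Of 37 Notch genes the target HEY2 (0.39 in A549, 0.37 in HTB56) was shared, and of 32 Hippo genes AMOTL1 and FAT4, an atypical cadherin gene (-0.33 in A549, -1.28 in HTB56). ID2 was no longer shared without A0R array 1 (unadjusted limma p 0.121 in A549). ID3 was no longer shared without H0R array 2 or 3 or H3R array 1 or 2 (unadjusted limma p 0.0633 to 0.173 in HTB56). TGFBR2 was no longer shared without A0R array 1 or 2, A3R array 1 or 2, H0R array 2 or H3R array 1 (unadjusted limma p 0.0521 to 0.165 in A549 and 0.0564 to 0.0869 in HTB56). SMAD1 was no longer shared without A0R array 2, A3R array 1 or 2, H0R array 2 or 3 or H3R array 1 or 3 (unadjusted limma p 0.0505 to 0.287 in A549). FZD5 was no longer shared without A0R array 2, A3R array 2 or 3 or H0R array 3 (unadjusted limma p 0.0552 to 0.0756 in A549 and 0.0526 in HTB56). HEY2 was no longer shared without H0R array 1 or H3R array 1 (unadjusted limma p 0.0695 to 0.0764 in HTB56). The averaged call of TGFBR2 was lost without 4 of these arrays (A0R replicate 1, A3R replicate 2, H0R replicate 2, H3R replicate 1, limma adjusted p 0.0562 to 0.0617), without the block (0.0527) and with median centring (0.0501). TGFBR2 (0.0626 in A549), TGFBR3 (0.0723 in A549), SMAD1 (0.134 in A549), ID3 (0.129 in HTB56) and FAT4 (0.0667 in A549) were not shared in the fit without the replicate block, by the unadjusted limma p in parentheses. BMPR2, ACVR2A, ID2, FZD5 and FZD7 lie on chromosome 2, where 11.4% of genes were shared falls, and the part of that shift in these falls was not tested.

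Several genes induced by low oxygen fell in both lines. Of 36 hypoxia and glycolysis genes 3 were called higher and 9 lower, and 5 falls and 1 rise were shared, which is 16.7% of the list beside 3.88% of all genes. NDRG1, a stress-induced gene listed among metastasis suppressors, read 9.10, 8.66 and 8.52 in A0R, 8.37, 8.20 and 8.09 in A3R, 7.52, 7.89 and 7.26 in H0R and 6.60, 6.56 and 6.39 in H3R. No selected array reached the unselected ones of its line, and the average was -0.79 (SE 0.09, limma adjusted p = 0.000179), with -0.54 in A549 and -1.04 in HTB56. ADM, which encodes the peptide adrenomedullin, read 9.65, 9.40 and 8.91 in A0R, 8.99, 8.79 and 8.78 in A3R, 9.67, 9.55 and 9.22 in H0R and 9.11, 9.08 and 8.55 in H3R. A0R replicate 3 lay within the range of the selected arrays, the HTB56 groups were separate, and the average was -0.52 (SE 0.08, limma adjusted p = 0.000763), with -0.46 in A549 and -0.57 in HTB56. SLC2A3, the gene of a glucose transporter (-0.46 in A549, -0.48 in HTB56), KDM3A and DDIT4 were the other shared falls, and P4HA1 was the rise. KDM3A lies on chromosome 2.

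The falls of PDK4 and PPARGC1A stood in a list of 33 mitochondrial regulators and fatty acid oxidation genes, 3 of them higher and 7 lower. PPARGC1A encodes a coactivator of mitochondrial gene expression. It read 5.55, 5.51 and 5.85 in A0R, 4.81, 4.34 and 4.40 in A3R, 7.15, 7.15 and 7.22 in H0R and 6.82, 6.51 and 6.51 in H3R. Selected arrays were lower in both lines, with the larger step in A549, at -0.84 (SE 0.09, limma adjusted p = 9.8e-05), with -1.12 in A549 and -0.56 in HTB56 (interaction 0.56, limma adjusted p = 0.0442). Among urea cycle and amino acid genes 3 of 29 were higher and 7 lower. While CPS1 rose, GOT1, an aspartate aminotransferase gene (-0.37 in A549, -0.31 in HTB56), OAT, the ornithine aminotransferase gene (-0.29 in A549, -0.47 in HTB56), and ASL, the argininosuccinate lyase gene (-0.30 in A549, -0.30 in HTB56), fell. Of 28 cholesterol and fatty acid synthesis genes, 1 was higher (3.57%, beside 8.93% of all genes) and 7 lower (25%, beside 11.5%) on average. HTB56 alone had 1 higher (3.57%, beside 12.9%) and 14 lower (50%, beside 15.1% of all genes), and A549 had 0 called in either direction. HMGCS1 (-0.43 in A549, -0.44 in HTB56) and SC5D (-0.21 in A549, -0.36 in HTB56), both enzymes of sterol synthesis, were shared. OAT was no longer shared without A0R array 3 (unadjusted limma p 0.0746 in A549). ASL was no longer shared without A0R array 1 or 2, A3R array 1 or 2, H0R array 1 or H3R array 1 or 3 (unadjusted limma p 0.0556 to 0.134 in A549 and 0.0692 to 0.14 in HTB56). SC5D was no longer shared without A0R array 1, 2 or 3, A3R array 2 or 3, H0R array 3 or H3R array 1, 2 or 3 (unadjusted limma p 0.0552 to 0.188 in A549). The ASL average was not called without 6 of those arrays (all except A0R replicate 1, limma adjusted p 0.0568 to 0.0671). OAT (0.0573 in A549) and SC5D (0.0762 in A549) were not shared in the fit without the replicate block, by the unadjusted limma p in parentheses.

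Secretory granule and neuroendocrine genes had 4 higher and 16 lower (40%, beside 11.5% of all genes) of 40 on average. In HTB56 17 were called lower (42.5%, beside 15.1% of all genes) and in A549 3 (7.5%, beside 1.56%). SNAP25, a membrane fusion gene, read 7.13, 7.09 and 7.42 in A0R, 6.54, 6.61 and 6.86 in A3R, 8.11, 8.18 and 8.26 in H0R and 6.57, 6.46 and 6.52 in H3R. It was lower on all selected arrays, at -1.11 (SE 0.06, limma adjusted p = 1.22e-06), with -0.54 in A549 and -1.67 in HTB56, and the fall was larger in HTB56 (interaction -1.13, limma adjusted p = 0.000123). RAB27B (-0.33 in A549, -0.68 in HTB56), a vesicle transport gene, and SCG2 (-0.31 in A549, -3.61 in HTB56), the secretogranin II gene, were shared falls by the rule, although the change of SCG2 was larger in HTB56 (interaction -3.30, limma adjusted p = 1.5e-06) and its A549 signal stayed below 5. SYT1, a calcium sensor of vesicle release (0.51 in A549, 0.73 in HTB56), and CADPS2, a granule priming gene (0.54 in A549, 1.18 in HTB56), were shared rises. RAB27B was no longer shared without A0R array 1 or 3, A3R array 1, 2 or 3, H0R array 2 or H3R array 2 (unadjusted limma p 0.0501 to 0.2 in A549). SCG2 was no longer shared without A0R array 2 or 3 or A3R array 1 or 2 (unadjusted limma p 0.058 to 0.135 in A549). The shared call of SCG2 therefore rests among others on A0R replicate 2. RAB27B (0.115 in A549) was not shared in the fit without the replicate block, by the unadjusted limma p in parentheses. SCG2 lies on chromosome 2.

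Epithelial and mesenchymal genes were called in both directions. Of 43 junction and keratin genes 9 were higher and 5 lower, with CLDN4, a claudin gene (1.03 in A549, 0.31 in HTB56), and JUP, the plakoglobin gene (0.35 in A549, 1.37 in HTB56), shared. Of 37 mesenchymal genes 6 were higher and 8 lower, with DPYSL3 (2.38 in A549, 0.36 in HTB56), a cytoskeletal gene, shared higher and SPARC, a matrix protein gene (-0.51 in A549, -1.04 in HTB56), shared lower. SPARC read 4.28, 5.26 and 4.18 in A0R, where replicate 2 was high, and 3.99, 4.27 and 3.93 in A3R, and without A0R replicate 2 its A549 change was -0.24. The mucosal list had 8 higher and 0 lower of 41, with TFF1 and AGR2, a secretory pathway gene (0.58 in A549, 2.83 in HTB56), shared. Tetraspanins had 7 higher and 4 lower of 31, with TSPAN8 and CD9 (0.28 in A549, 1.77 in HTB56) shared. CLDN4 was no longer shared without H0R array 3 or H3R array 1 (unadjusted limma p 0.0551 to 0.107 in HTB56). JUP was no longer shared without A0R array 1 or 2 or A3R array 1, 2 or 3 (unadjusted limma p 0.0643 to 0.112 in A549). AGR2 was no longer shared without A0R array 1 or 2 or A3R array 1 or 2 (unadjusted limma p 0.0581 to 0.14 in A549). CD9 was no longer shared without A0R array 2 or A3R array 3 (unadjusted limma p 0.0706 to 0.0732 in A549). JUP (0.0731 in A549), CLDN4 (0.0636 in HTB56), DPYSL3 (0.129 in HTB56) and CD9 (0.0527 in A549) were not shared in the fit without the replicate block, by the unadjusted limma p in parentheses.

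Of 58 cell cycle genes 5 were higher (8.62%, beside 8.93% of all genes) and 16 lower (27.6%, beside 11.5%) on average. HTB56 alone had 10 higher (17.2%, beside 12.9%) and 18 lower (31%, beside 15.1% of all genes). A549 alone had 1 higher (1.72%, beside 1.75%) and 2 lower (3.45%, beside 1.56%). Shared falls made up 5.17% of the list, beside 3.88% of all genes shared either way. They were CCNA2, the cyclin A2 gene (-0.18 in A549, -0.44 in HTB56), CDC25C, a phosphatase gene of mitotic entry (-0.26 in A549, -0.42 in HTB56), and E2F1, a transcription factor gene of S phase (-0.26 in A549, -0.38 in HTB56). MKI67, a marker of proliferation, went from a mean of 9.80 to 9.76 in A549 and from 8.39 to 9.24 in HTB56, and its average was called higher (0.40, limma adjusted p = 0.00284). In the DNA methylation and Polycomb list 1 of 42 was higher and 7 lower, with TET2, a demethylating oxygenase gene (-0.29 in A549, -0.83 in HTB56), PCGF1 (-0.30 in A549, -0.46 in HTB56) and UHRF1 (-0.24 in A549, -0.39 in HTB56), the partner of DNMT1 at replicating DNA, shared. A second UHRF1 probe set changed by 0.02 (unadjusted limma p 0.852), and the mean of its probe sets was not called (-0.15, limma adjusted p 0.142). DNMT1 changed by 0.01 in A549 and -0.06 in HTB56, DNMT3A by -0.10 in A549, -0.40 in HTB56, DNMT3B by -0.65 in A549, 0.18 in HTB56 and EZH2 by 0.11 in A549, -0.28 in HTB56. DNMT3A and DNMT3B were called lower on average (limma adjusted p 0.0174 and 0.0164). These calls were lost without A3R replicate 1, H0R replicate 3 or H3R replicate 3 for DNMT3A (0.0507 to 0.054) and without H3R replicate 2 (0.0534) or without the block (0.0626) for DNMT3B. CCNA2 was no longer shared without A0R array 3 or A3R array 3 (unadjusted limma p 0.119 to 0.132 in A549). CDC25C was no longer shared without A0R array 2 or 3 or A3R array 2 or 3 (unadjusted limma p 0.0588 to 0.132 in A549). E2F1 was no longer shared without A0R array 1 (unadjusted limma p 0.0625 in A549). TET2 was no longer shared without A0R array 1 or 2 or A3R array 2 or 3 (unadjusted limma p 0.0523 to 0.137 in A549). PCGF1 was no longer shared without A0R array 1 or 2, A3R array 1 or 2, H0R array 1, 2 or 3 or H3R array 3 (unadjusted limma p 0.0534 to 0.243 in A549). Without the block the E2F1 average had a limma adjusted p of 0.184. CCNA2 (0.144 in A549), E2F1 (0.216 in A549 and 0.0797 in HTB56), TET2 (0.116 in A549) and UHRF1 (0.0617 in A549) were not shared in the fit without the replicate block, by the unadjusted limma p in parentheses. PCGF1 and DNMT3A lie on chromosome 2.

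Unfolded protein and amino acid stress genes had 4 of 35 shared (11.4%) and solute carriers 4 of 40 (10%), beside 3.88% of all genes. The stress genes were 3 rises, CHAC1 (0.36 in A549, 0.55 in HTB56), HSP90B1 (0.23 in A549, 0.21 in HTB56) and SEL1L (0.21 in A549, 0.53 in HTB56), and 1 fall (DDIT4). Solute carriers had SLC16A7 (1.20 in A549, 0.44 in HTB56), a monocarboxylate transporter gene, and SLC22A4 (0.27 in A549, 0.29 in HTB56) higher and SLC2A3 and SLCO1B3 (-0.30 in A549, -0.36 in HTB56) lower. Of 29 p53 targets PLK2 (0.46 in A549, 0.79 in HTB56) was shared higher and POLH, a DNA polymerase gene (-0.18 in A549, -0.35 in HTB56), lower. Of 28 S100 and annexin genes S100P was higher (0.29 in A549, 0.27 in HTB56) and ANXA6 lower (-0.32 in A549, -0.40 in HTB56). Of 43 xenobiotic metabolism genes CYP3A5 was higher (0.76 in A549, 0.34 in HTB56) and UGT8 lower (-0.39 in A549, -3.34 in HTB56). PCDHB2 (0.35 in A549, 3.33 in HTB56) was the 1 shared member of 28 protocadherins. Others were HSPB8 (0.41 in A549, 0.81 in HTB56) and SPRED2 (-0.43 in A549, -0.30 in HTB56), 2 of 46 immediate early and heat shock genes, MEIS1 (-0.26 in A549, -0.72 in HTB56), 1 of 30 in the HOX list, KCNJ2 (-0.49 in A549, -1.02 in HTB56) and KCND1 (-0.23 in A549, -0.40 in HTB56), 2 of 50 ion channels, and RPS7 (-0.27 in A549, -0.51 in HTB56), 1 of 40 ribosomal protein genes. Formin and actin genes (36) and cancer-testis genes (25) had 0 shared members, beside 3.88% of all genes, a share at which lists this small can hold 0. On average 9 and 4 of them were called by limma (25% and 16%, beside 20.4% of all genes). CHAC1 was no longer shared without A0R array 1 or 2 or A3R array 1 or 3 (unadjusted limma p 0.0554 to 0.128 in A549). HSP90B1 was no longer shared without A0R array 1, A3R array 1, H0R array 1 or H3R array 1 (unadjusted limma p 0.051 to 0.0561 in A549 and 0.0688 to 0.074 in HTB56). SEL1L was no longer shared without A0R array 1 or A3R array 1 (unadjusted limma p 0.0731 to 0.0997 in A549). CYP3A5 was no longer shared without H0R array 1 or 3 or H3R array 1 or 3 (unadjusted limma p 0.0538 to 0.199 in HTB56). POLH was no longer shared without A0R array 2 or A3R array 1 or 3 (unadjusted limma p 0.0628 to 0.134 in A549). S100P was no longer shared without A0R array 2 or 3, A3R array 1 or 2, H0R array 1 or 3 or H3R array 1 or 3 (unadjusted limma p 0.0599 to 0.142 in A549 and 0.0788 to 0.199 in HTB56). UGT8 was no longer shared without A0R array 2 or 3, A3R array 1 or 3 or H0R array 1 (unadjusted limma p 0.052 to 0.207 in A549). PCDHB2 was no longer shared without A0R array 3 (unadjusted limma p 0.0642 in A549). HSPB8 was no longer shared without A0R array 3 or A3R array 3 (unadjusted limma p 0.101 to 0.102 in A549). MEIS1 was no longer shared without A0R array 2 or A3R array 2 (unadjusted limma p 0.0734 to 0.0862 in A549). KCNJ2 was no longer shared without A3R array 1 or 3 (unadjusted limma p 0.0583 to 0.0905 in A549). KCND1 was no longer shared without A0R array 2 or 3, A3R array 1 or 3, H0R array 1, 2 or 3 or H3R array 1 or 3 (unadjusted limma p 0.0535 to 0.253 in A549). RPS7 was no longer shared without A0R array 1 or 3 or A3R array 2 or 3 (unadjusted limma p 0.0585 to 0.238 in A549). SLC22A4 was no longer shared without A3R array 2 (unadjusted limma p 0.0641 in A549). SLCO1B3 was no longer shared without A0R array 2 or 3, A3R array 1 or 3, H0R array 1 or H3R array 2 or 3 (unadjusted limma p 0.0759 to 0.222 in A549 and 0.0581 to 0.0722 in HTB56). The averaged calls of S100P and SLCO1B3 were lost without some of these arrays (limma adjusted p 0.0593 to 0.0871 and 0.0569 to 0.0612), and without the block S100P had 0.348 and SLC22A4 0.122. S100P (0.237 in A549 and 0.266 in HTB56), CYP3A5 (0.0562 in HTB56), POLH (0.0733 in A549), SLC22A4 (0.0997 in A549 and 0.0826 in HTB56), KCND1 (0.0637 in A549) and RPS7 (0.0584 in A549) were not shared in the fit without the replicate block, by the unadjusted limma p in parentheses. The falls MEIS1, SPRED2 and RPS7 lie on chromosome 2.

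**Figure D3:**
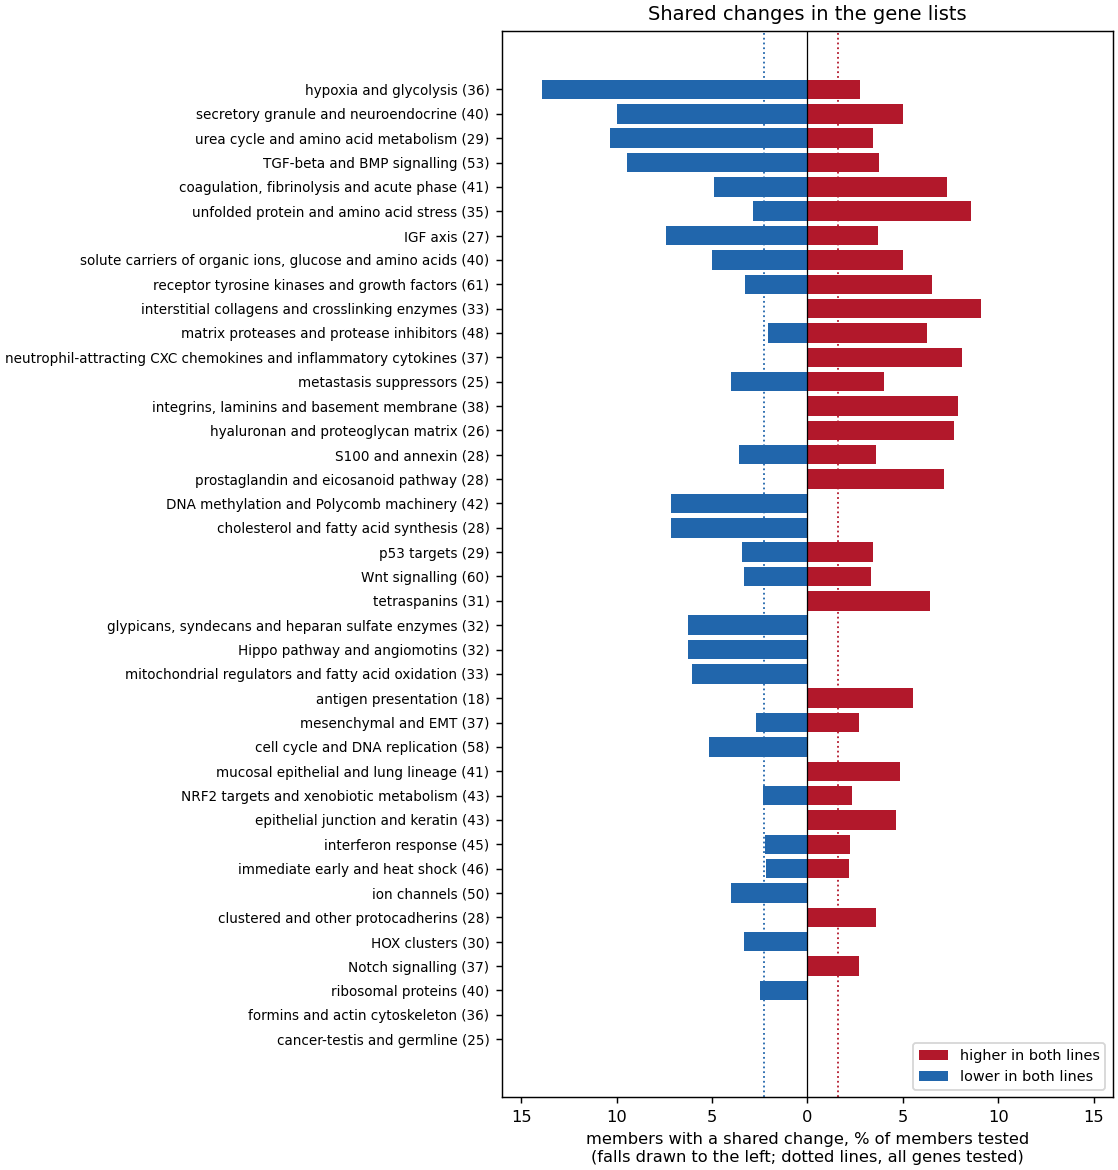
Share of each gene list with a shared change, in percent of the members tested (number in parentheses), rises to the right and falls to the left; dotted lines mark 1.62% and 2.27%, the shares over all genes tested. Hypoxia and glycolysis genes had the largest total share drawn (16.7%), and formin and cancer-testis genes had none.

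Large averages could rest on 1 line. The largest averaged rises outside the shared set were those of PCDHB3, a clustered protocadherin gene (-0.18 in A549, 4.11 in HTB56), S100A4, a calcium-binding protein gene (0.09 in A549, 2.94 in HTB56), DIO2, the type 2 deiodinase gene (-0.22 in A549, 3.00 in HTB56), SYT13, a synaptotagmin gene (2.70 in A549, -0.06 in HTB56), NRK, a kinase gene (0.11 in A549, 2.43 in HTB56), and OTULINL (0.26 in A549, 2.27 in HTB56). The largest falls were those of SCG3, the secretogranin III gene (-0.01 in A549, -5.06 in HTB56), NTS, the neurotensin gene (-4.20 in A549, 0.05 in HTB56), RAB3C, a vesicle GTPase gene (-0.25 in A549, -3.76 in HTB56), FSTL5 (0.00 in A549, -3.63 in HTB56), MFNG, a fringe glycosyltransferase gene (0.05 in A549, -3.64 in HTB56), and KIT (-0.36 in A549, -3.11 in HTB56). For all 12 the interaction was called by limma (adjusted p from 3.44e-09 for SCG3 to 0.000289 for OTULINL). SCG3 read 3.29, 3.33 and 3.27 in A0R, 3.39, 3.12 and 3.35 in A3R, 9.0, 8.97 and 8.91 in H0R and 3.90, 3.95 and 3.85 in H3R. The A549 arrays all lay under 3.48 and the H3R arrays just above it, so the average of -2.54 describes neither line. SYT13 and NTS were the members that A549 carried, and the other 10 were carried by HTB56.

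**Figure D4:**
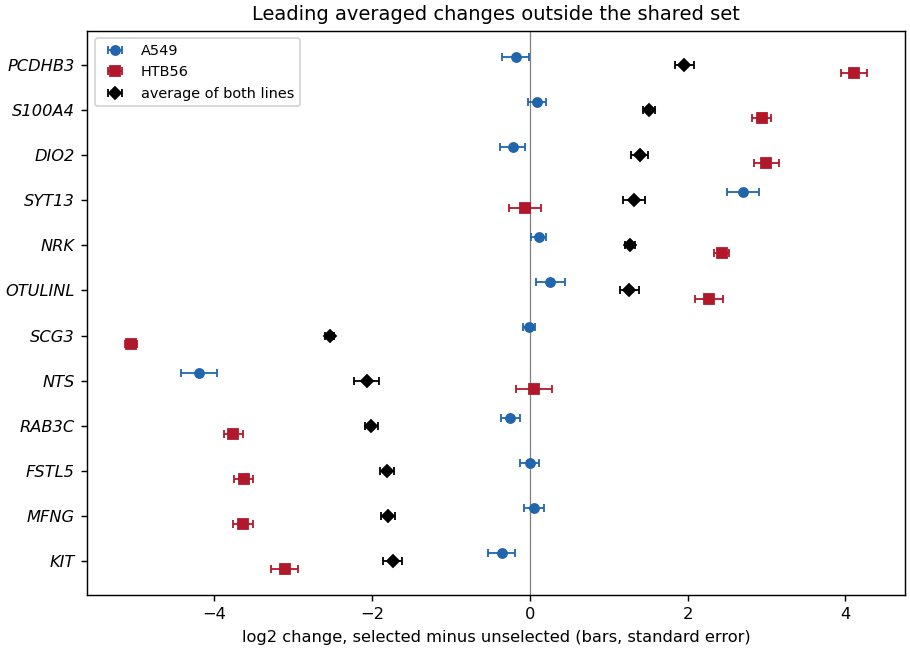
Log2 change with selection of the 6 largest averaged rises and 6 largest averaged falls outside the shared set, in A549 (circles), in HTB56 (squares) and averaged (diamonds); bars are standard errors. The change of 1 line was small for every gene drawn, as for SCG3, with -0.01 in A549 and -5.06 in HTB56.

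Where both lines changed by like amounts in opposite directions the average was near 0. CXCL8 read 7.20, 7.08 and 7.97 in A0R, 8.69, 9.02 and 8.97 in A3R, 7.07, 6.39 and 6.86 in H0R and 5.02, 5.23 and 5.44 in H3R. Selected arrays were above all unselected ones in A549 and below all of them in HTB56. DNAJC12, a cochaperone gene (1.46 in A549, -1.32 in HTB56), LXN, a carboxypeptidase inhibitor gene (1.11 in A549, -1.16 in HTB56), and KCNN4, a calcium-activated potassium channel gene (0.97 in A549, -0.97 in HTB56), were the next largest such pairs, with averages of 0.07, -0.02 and -0.00. Limma called the interaction of all 4, at adjusted p from 6.04e-07 for DNAJC12 to 8.81e-05 for LXN.

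Genes often used to mark epithelial and mesenchymal states did not change alike. CDH1 changed by -0.85 in A549 and -0.05 in HTB56, and its average was called lower (-0.45, limma adjusted p = 0.0162), with a dim signal in HTB56. EPCAM, an epithelial adhesion gene, changed by -0.42 in A549 and 1.02 in HTB56 (average 0.30, limma adjusted p = 0.224), and the interaction was called (adjusted p = 0.00846). VIM, the vimentin gene, changed by -0.07 in A549 and 0.17 in HTB56 (average 0.05, limma adjusted p = 0.567). ZEB1, a repressor of epithelial genes, was called higher on average (0.25, limma adjusted p = 0.00442, and 0.0584 without the block), with 0.05 in A549 and 0.46 in HTB56.

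Shared falls were unevenly spread over the genome, a pattern examined after its values were seen. Chromosome 2 held 123 of the 384 shared falls (32%) but 1080 of the genes tested (6.38%), so 11.4% of its genes were shared falls against 1.65% elsewhere, and 6 of its genes were shared rises. Largest in both lines were PECR, a peroxisomal reductase gene (-1.14 in A549, -0.55 in HTB56), COX5B, a subunit gene of cytochrome oxidase (-0.50, -0.87), SFXN5 (-0.49, -0.52), RALB, a small GTPase gene (-0.49, -0.49), and SUCLG1, an enzyme gene of the citric acid cycle (-0.48, -0.54). The fall of RALB took its mean from 9.12 to 8.63 in A549 and from 9.08 to 8.59 in HTB56, an average of -0.49 (SE 0.07, limma adjusted p = 0.000442). YIPF4 (-0.46, -0.59), STEAP3, a metalloreductase gene of iron uptake (-0.43, -0.52), and TMEM150A (-0.42, -0.47) came next.

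Taken over all chromosome 2 genes tested, called ones included, 69.6% lay below zero in A549 against 50.3% elsewhere. In HTB56 these shares were 56.6% and 45%. Of the 1080 genes, 55 were called lower in A549 alone and 294 in HTB56 alone, and uncalled genes were not counted apart. The median change of chromosome 2 genes was -0.10 in A549 and -0.04 in HTB56. In A549 this was the lowest median of any chromosome. In HTB56 it was not, as chromosome 7 had -0.12 and chromosome 13 -0.06. HTB56 alone had 242 of 757 genes called lower on chromosome 7 and 294 of 1080 on chromosome 2. The median deviation of chromosome 2 genes from the mean of their line was 0.013 to 0.079 on single unselected arrays. On selected arrays it was -0.064 to -0.000. Genes of other chromosomes had -0.022 to 0.028 over all arrays. Chromosome 2 was picked by its falls on these same arrays, so the separation of the groups follows at least in part from that choice. In blocks of 54 genes in chromosomal order, HTB56 had its lowest medians from SNORA70B to MAL (-0.25, -0.22 and -0.22) and from CLK1 to RPE (-0.24), while A549 lay between -0.18 and 0.01 along the whole chromosome. The block from NPAS2 to IL36G, with -0.18 in A549 and 0.06 in HTB56, held 0 shared falls, and the one before it, from MRPS5 to PDCL3, held 15. Of 48 pairs of neighbouring shared genes that moved alike, 23 were falls on chromosome 2.

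These falls were small, with a median average of -0.36 beside -0.37 for shared falls elsewhere, and 0 of the 15 leading falls lay on chromosome 2. A refit without chromosome 2 genes gave 525 genes that moved the same way and 556 that moved opposite ways, so 48.6% were alike, and 90 genes called in both lines the same way beside 95 called opposite ways. Among shared rises the highest shares were those of chromosome 12 (38 of 881 genes, 4.31%) and chromosome 15 (22 of 529, 4.16%).

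**Figure D5:**
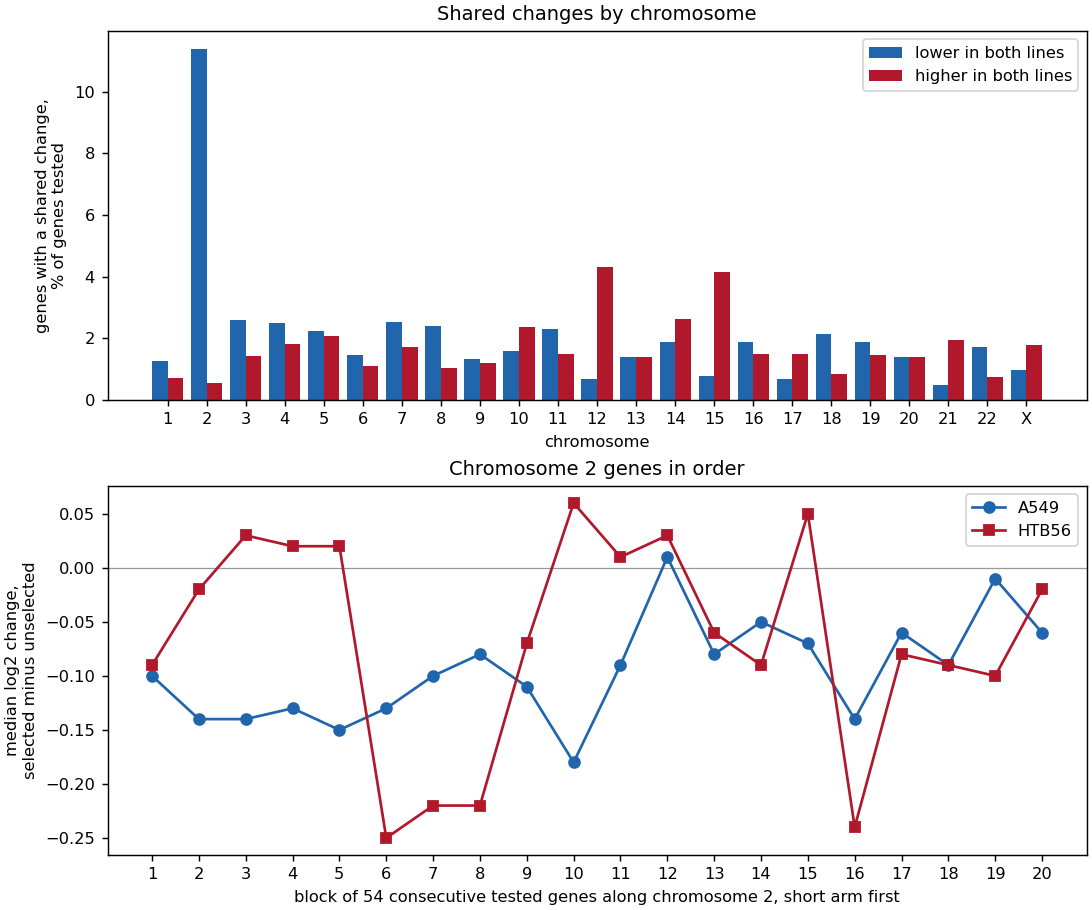
Upper panel, genes with a shared fall or rise in percent of the genes tested on each chromosome; lower panel, median log2 change of 20 blocks of 54 consecutive chromosome 2 genes in A549 and HTB56. Chromosome 2 stands out with 11.4% shared falls, and both lines have negative medians in 13 of the 20 blocks.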

How the data were processed

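RNA from 12 samples was hybridised to 1-colour Affymetrix arrays, and the deposited values are log2 signals. The submitters' processing notes name RMA and Affymetrix Expression Console as the authors' tools for these log2 values (versions and genome build not given in the sources used here). Of 33297 probe sets, 19460 had 1 gene symbol, 1754 several and 12083 none, and only the first were used. Probe sets above the 20th percentile of their array on at least 3 arrays were kept, with the brightest per gene. The contrast, each line's change and their difference were estimated by linear models with moderated variances (limma 3.58.1 under R 4.3.3, adjusted by Benjamini-Hochberg over all genes), with replicate number as a block. Same-number arrays of different groups correlated in their deviations at 0.160 to 0.549 over 18 pairs, other pairs at -0.417 to 0.204. The fit was tested on simulated data.

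Named genes were the 15 shared rises and 15 falls with the largest smaller change, the 6 largest unshared averages each way, up to 4 shared members per list and direction, the 4 largest opposite pairs and 9 fixed genes. Non-coding, pseudogene, olfactory receptor and placeholder symbols were left out of all but the lists. Members and lists were chosen with earlier results of these data known. Alternatives were the block, filters, probe set means, centring, loess, eBayes settings, array weights, separate fits, a stricter threshold and left-out arrays.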

Additional observations from a re-analysis of the deposited data

Results flagged for a closer look

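For 29 named genes with a shared change, limma's interaction test called the size of the change different between the lines. The values below are the change of HTB56 minus that of A549 (log2) and the limma adjusted p of that difference. It was above 0 for RNF144B (0.65, 0.00197), TFF1 (0.81, 0.0221), LUM (0.86, 0.0306), TSPAN8 (1.99, 0.000406), IFIT5 (0.92, 0.000551), P4HA2 (0.62, 0.00131), TIMP1 (0.77, 0.00108), JUP (1.02, 0.00473), CD9 (1.49, 4.08e-05), AGR2 (2.25, 0.000649), CADPS2 (0.64, 0.0432), PCDHB2 (2.98, 1.29e-06) and PPARGC1A (0.56, 0.0442). For rises such as TSPAN8, AGR2 and CD9 this means a larger rise in HTB56, and for PPARGC1A a larger fall in A549.

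The difference was below 0 for TBXAS1 (-0.44, 0.0494), TNFSF15 (-1.15, 0.00172), AMOTL1 (-0.85, 0.00512), ICAM1 (-0.79, 0.0174), CLDN4 (-0.72, 0.00733), DPYSL3 (-2.02, 1.11e-05), SNAP25 (-1.13, 0.000123), SCG2 (-3.30, 1.5e-06), UGT8 (-2.95, 1.68e-05), TET2 (-0.53, 0.0368), ID2 (-0.92, 0.00698), TGFBR3 (-0.74, 0.00129), EGF (-0.89, 0.00112), FAT4 (-0.95, 0.000345), MEIS1 (-0.45, 0.0302) and SLC16A7 (-0.76, 0.0147). SCG2, UGT8, SNAP25 and AMOTL1 fell more in HTB56, while TNFSF15, ICAM1 and DPYSL3 rose more in A549.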

How the results depend on the processing

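In the 25 alternatives with an averaged contrast, 0 averaged changes of the 137 named genes reversed and 129 values lost the limma call, where 3 genes had no value under the filter at the 40th percentile and those of chromosome 2 none in the refit without it. Arrays with the same number deviated together, so the replicate block was kept. Without it the averaged contrast called 2137 genes (900 higher, 1237 lower), A549 297 and the interaction 2000, with 334 shared, 47 called in both lines the same way and 49 opposite ways. Among named genes the block changed the averaged calls given in the text and no other, and 34 of the 112 shared ones were not shared without it. Array weights ended the shared status of 9, cyclic loess of 9, median centring of 7, eBayes trend and robust of 5 and probe set means of 1. With eBayes trend and robust A549 had 908 calls, with 221 the same way and 208 opposite, and with each line fitted alone 313, 67 and 51. At a threshold of 0.01 the average called 1969 (844 higher, 1125 lower), A549 207, HTB56 3161 and the interaction 1845, with 28 the same way and 29 opposite. Without any 1 array the ranges were 2772 to 3156 called (1188 to 1474 higher, 1584 to 1775 lower), 290 to 525 in A549, 3657 to 4816 in HTB56, 478 to 621 shared, 56 to 95 the same way, 54 to 102 opposite and 2629 to 3089 in the interaction. Without a replicate number in all groups they were 1576 to 2231 (679 to 1078, 897 to 1194), 156 to 266, 2870 to 3491, 342 to 505, 24 to 41, 22 to 39 and 1538 to 2077, in fits with fewer arrays. Median centring called 1166 genes higher and 2198 lower. Leaving out chromosome 2 genes, an alternative chosen after seeing the data, gave 525 shared genes. The cause of the other moves was not tested. Genes near background, such as LUM in A0R, have changes limited by signal.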

Other observations

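Of the 658 shared genes, 12 were not protein coding. The SNORD116 small nucleolar RNA copies, which are near-identical in sequence and may share probe signal, had 5 shared members of 13 tested. For 19 shared genes with several probe sets, 18 of the 22 other probe sets changed in the same direction and 0 were called the opposite way.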
